A study of Mus musculus with 6 samples.

Results

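The genes described here are named after the proteins of the 2 ribosomes of a mouse cell, the cytosolic ribosome and the mitochondrial ribosome. They were chosen by symbol alone: every gene of the count table whose symbol begins with Rpl, Rps, Mrpl or Mrps followed directly by a digit, together with Rpsa, Rplp0, Rplp1 and Rplp2, without the pseudogene symbols that carry -ps and without the kinases of the Rps6k family. This gave 169 of the 23841 gene identifiers in the table. Of these, 92 are cytosolic and 77 mitochondrial. The cytosolic set divides into 46 core proteins of the large subunit, 31 core proteins of the small subunit and 15 paralogs and lookalikes. The last are genes named after a ribosomal protein but not part of the standard core. Among these 15, Rpl6l, Rpl32l, Rpl37rt, Rps3a2, Rps3a3 and Rps4l are annotated as pseudogenes, although their symbols do not carry -ps. The mitochondrial set was divided by symbol alone, into 48 Mrpl genes, taken as the large subunit, and 29 Mrps genes, taken as the small subunit. The place of each protein in the ribosome was not checked. The members lie on 20 chromosomes.

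RNA was sequenced from ILC1 and from cNK sorted out of the kidneys of naive wild-type (WT) C57BL/6 mice, with 3 pools of each population. Type 1 innate lymphoid cells (ILC1) are tissue-dwelling lymphocytes, sorted here as CD49a+ cells with low or intermediate CD49b, and conventional natural killer cells (cNK) are circulating cytotoxic lymphocytes, sorted as CD49b high cells. Both gates also required NK1.1 and NKp46 and excluded CD3. The labels give neither the age nor the number of mice in a pool and do not say that pools came from separate animals, so all p-values reflect only how much these pools differed from each other.

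A ribosome consists of a large and a small subunit, each built of ribosomal RNA and many proteins. The cytosolic ribosome translates the messenger RNAs of the nucleus, and its protein genes are among the most abundantly transcribed housekeeping genes in lymphocytes, with many of their mRNAs carrying a pyrimidine tract at the 5′ end (the TOP motif) through which mTORC1 signalling controls their translation. The mitochondrial ribosome translates the few mRNAs of the mitochondrial genome, which encode subunits of the respiratory chain. Its proteins are all encoded in the nucleus and imported, while its ribosomal RNAs come from the mitochondrial genome.

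The annotated starts of several members are shown as chosen examples with and without a tract. Their proportions do not stand for those of the sets, which are given after the lines. Each line gives 30 bases of the RefSeq promoter on GRCm38.p6, 15 before the annotated start and 15 from it onward, in the direction of the gene. Capitals mark a pyrimidine tract, taken as C followed by C or T letters only, at least 7 letters in all, on the sense strand and starting within 10 bases of the annotated start. A line without capitals holds no such run. A run may lie wholly before the annotated start, as in Mrpl12, so a match need not be a TOP motif of the mRNA.
Rps6 at chr4:86857353-86857382, minus strand: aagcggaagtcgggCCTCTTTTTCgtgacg
Rps27 at chr3:90213634-90213663, minus strand: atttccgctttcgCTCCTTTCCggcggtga
Rps18 at chr17:33955651-33955680, minus strand: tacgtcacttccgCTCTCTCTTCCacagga
Rplp2 at chr7:141447636-141447665, plus strand: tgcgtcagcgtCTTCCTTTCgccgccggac
Rplp0 at chr5:115559452-115559481, plus strand: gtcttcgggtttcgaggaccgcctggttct
Rpsa at chr9:120127751-120127780, plus strand: gtgggttatttaaggacgtcatttccggcc
Mrpl12 at chr11:120484622-120484651, plus strand: agctcgCCTCCTCCCggatagagcgtcgct
Mrpl33 at chr5:31613936-31613965, plus strand: cccgcgcatgccccggaagtagtcgttgag
Mrpl50 at chr4:49521069-49521098, minus strand: tggctgagtcgggcacgtctggcgctcttg
Mrps5 at chr2:127587411-127587440, plus strand: gctgctccggctccagcatggcggcggccg
Mrps2 at chr2:28468051-28468080, plus strand: tctgccgggcaggaagagtctctgcaggat

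A RefSeq promoter window was found for 136 of the 169 members, 68 in each set. The tract was present in 32 of the 68 cytosolic members (47.1%), in 7 of the 68 mitochondrial members (10.3%) and in 14.1% of the 27025 genes with a window. The annotated start of Rplp0 or Rpsa can differ by a few bases from the start used in these cells, so the absence of a tract says only that these letters are not in this window. In the 300-base window from 250 bases before to 50 after the start, searched on both strands, the motif CCGGAAG was present in 26 cytosolic and 25 mitochondrial members (38.2% and 36.8%, against 9.93% of all genes). The motif AAGATGGC was present in 6 cytosolic and 12 mitochondrial members (8.82% and 17.6%, against 3.19% of all genes). TATAAA was found in 11.8% and 7.35% of the members' windows, against 15.7% of all windows, and CACGTG in 8.82% and 7.35%, against 8.09%. These are matches of letters and not measured binding sites.

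The libraries held 22633440 to 28327265 counts. Itga1, which encodes CD49a, and Itga2, which encodes CD49b, differed between the populations in the direction of the sort (edgeR log2 fold change of ILC1 over cNK 3.62 and -2.69, adjusted p = 0.00251 and 0.0140). Markers of other cells were present. Those of macrophages, monocytes and dendritic cells made up 0.541 to 1.11% of counts in ILC1 pools and 0.230 to 0.275% in cNK pools, with 9 of 22 higher in ILC1 and 1 higher in cNK (edgeR). Kidney epithelial markers made up 0.0918 to 0.431% in ILC1 and 0.172 to 0.681% in cNK. EdgeR called 0 of their 15 genes while DESeq2 called 4, all higher in cNK. Over all genes tested, edgeR called 4.07% higher in ILC1 and 1.69% higher in cNK, and DESeq2 7.14% and 4.29%. T cell markers made up 0.0630 to 0.0932% in ILC1 and 0.0368 to 0.0418% in cNK, and B cell markers 0.0702 to 0.0746% and 0.0137 to 0.0199%. Of 8 T cell and 6 B cell markers tested, edgeR called 0 and 2 higher in ILC1, and 1 and 0 higher in cNK. Cd3g, which encodes a chain of the CD3 complex excluded by the gate, is not in that list and averaged 59.4 ± 13.2 CPM (read counts per library size, as defined below) in ILC1 and 10.6 ± 2.57 CPM in cNK (SD, n = 3 each; log2 fold change 2.49, edgeR adjusted p = 0.00384), with every ILC1 pool above every cNK pool. Cd3d and Cd3e, other chains of the complex, overlapped between the populations, at 4.78, 4.85 and 9.54 CPM in ILC1 and 6.66, 11.9 and 12.8 CPM in cNK for Cd3d, and at 1.93, 1.61 and 4.43 CPM in ILC1 and 0.716, 0.545 and 2.47 CPM in cNK for Cd3e. The part these cells have in the ribosomal protein levels was not tested. In bulk RNA, fewer cells of a type and less RNA per cell cannot be told apart.

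Over the whole set, the protein genes of both ribosomes differed between ILC1 and cNK by less than the pools of a population differed among themselves. The cytosolic members together made up 1.43, 2.64 and 1.86% of all counts in ILC1 pools 1, 2 and 3, against 1.84, 2.65 and 2.77% in cNK pools 1, 2 and 3. The mean was 1.98% ± 0.614 in ILC1 and 2.42% ± 0.504 in cNK (SD, n = 3 each), a ratio of 0.817, while the highest pool exceeded the lowest 1.85-fold within ILC1 and 1.50-fold within cNK. The groups overlapped, and ILC1 pool 2 was above cNK pool 1.

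The mitochondrial members held a smaller share, with 0.227, 0.351 and 0.315% of counts in ILC1 pools 1 to 3, against 0.260, 0.360 and 0.323% in cNK pools 1 to 3. The means of 0.298% ± 0.0638 in ILC1 and 0.314% ± 0.0504 in cNK (SD, n = 3 each) lay within 1 SD of each other, and the groups overlapped. The cytosolic share divided by the mitochondrial share was 6.31, 7.53 and 5.91 in ILC1 pools and 7.10, 7.38 and 8.58 in cNK pools, with means of 6.58 ± 0.842 and 7.68 ± 0.788. This ratio is taken within a library and does not depend on the scaling between libraries. Here too the highest ILC1 pool was above the lowest cNK pool.

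The balance of the subunits was nearly the same in all libraries. For the cytosolic ribosome, reads of large subunit genes exceeded those of small subunit genes 1.42-fold ± 0.0457 in ILC1 and 1.38-fold ± 0.00963 in cNK (SD, n = 3 each). For the mitochondrial ribosome, split by symbol, reads of Mrpl genes exceeded those of Mrps genes 1.92-fold ± 0.0160 in ILC1 and 1.95-fold ± 0.0554 in cNK (SD, n = 3 each). Both pairs of groups overlapped. These are ratios of summed reads that are not corrected for gene length, so they do not give the ratio of transcripts.

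**Figure D1:**
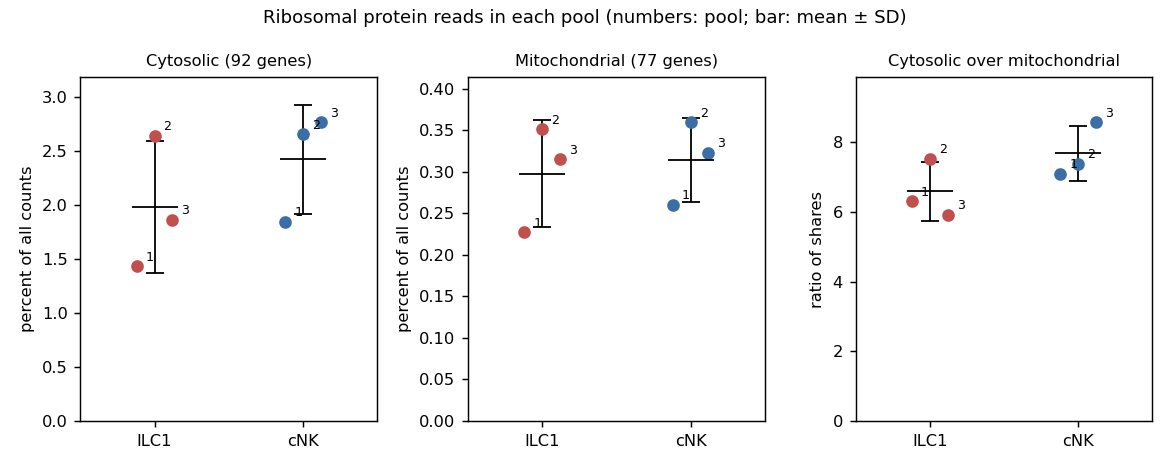
Share of all counts held by the cytosolic and by the mitochondrial ribosomal protein genes, in percent, and the ratio of both shares, in the 3 ILC1 pools and the 3 cNK pools (points, numbered by pool; bars, mean ± SD). The cytosolic share runs from 1.43 to 2.64% in ILC1 and from 1.84 to 2.77% in cNK, and the groups overlap in all 3 panels.

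Gene by gene, no cytosolic and no mitochondrial member passed the test of population alone. Counts were tested with edgeR's quasi-likelihood test over all 16144 genes that passed its filter on low counts, with Benjamini-Hochberg adjustment and a threshold of 0.05. Of the 92 cytosolic members, 90 passed the filter (all but Rpl39l and Rps23rg1), and edgeR called 0 of them in either direction, where 4.07% of all genes tested were called higher in ILC1 and 1.69% higher in cNK. By the unadjusted p, at under 0.05, there were 0 cytosolic members above cNK in ILC1 and 3 below (among them Rps4l and Rps3a3), against 11.4% and 6.63% of all genes. The DESeq2 Wald test called 0 higher and 1 lower in ILC1 (Rps4l), against 7.14% and 4.29% of all genes. With limma-voom, 0 and 0 were called, against 3.91% and 1.71%. All 77 mitochondrial members passed the filter, and edgeR called 0 in either direction. Among them 0 were above and 3 below cNK in ILC1 by the unadjusted p (Mrpl33, Mrpl50 and Mrpl58), DESeq2 called 0 higher and 1 lower in ILC1 (Mrpl33), and limma-voom 0 and 0.

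The fold changes leaned to 1 side all the same. The log2 fold change of ILC1 over cNK was below 0 for 87 of the 90 cytosolic members and 72 of the 77 mitochondrial members, against 49.2% of all genes tested. Its median was -0.57 for the cytosolic members, -0.26 for the mitochondrial members and 0.01 for all genes tested. The cytosolic values ran from -0.93 to 0.20 with an SD of 0.182 among members, narrower than the median standard error of a single cytosolic member (0.355). The mitochondrial values ran from -0.82 to 0.22 with an SD of 0.229, beside a median standard error of 0.285. By subunit, the median was -0.56 for the 46 large subunit proteins of the cytosolic ribosome and -0.57 for its 31 small subunit proteins. It was -0.27 for the 48 Mrpl genes and -0.25 for the 29 Mrps genes.

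**Figure D2:**
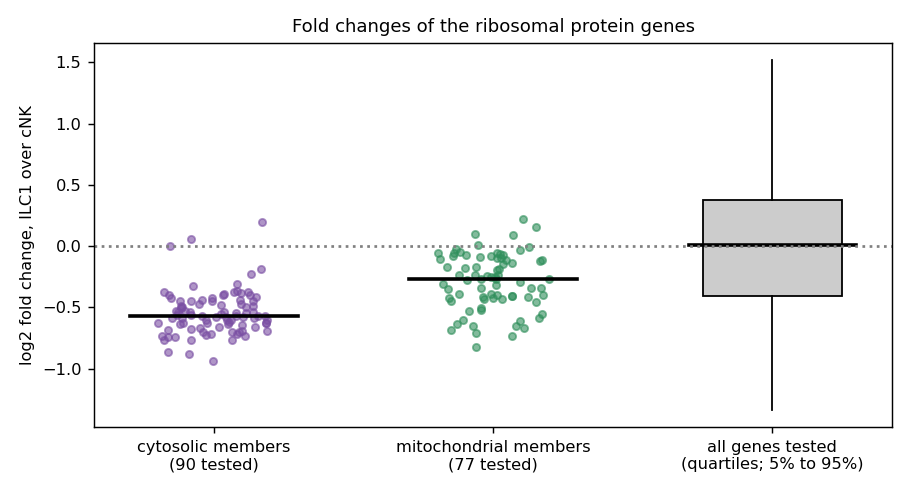
Log2 fold change of ILC1 over cNK for each tested cytosolic and mitochondrial member (points; line, median), beside all genes tested (box, quartiles; line, median; whiskers, 5% to 95%). The cytosolic points centre on -0.57 and the mitochondrial points on -0.26, both inside the range of all genes.

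The members are not independent of each other, because they went up and down together from library to library. As the log2 deviation from a gene's mean over the 6 libraries, the median cytosolic member stood at -0.74, 0.25 and -0.34 in ILC1 pools 1 to 3 and at -0.27, 0.60 and 0.51 in cNK pools 1 to 3. The median mitochondrial member stood at -0.56, 0.18 and -0.06 in ILC1 and at -0.25, 0.50 and 0.19 in cNK. Both sets thus put the pools of each population in the same order, with ILC1 pool 1 at the bottom and cNK pool 2 at the top. At each pool number, the median member was lower in ILC1 than in cNK, in the cytosolic and in the mitochondrial set. The labels do not say whether pools of the same number belong together.

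ILC1 pool 1 was the lowest of the 6 libraries for 82 of 90 cytosolic and 66 of 77 mitochondrial members. The highest library was cNK pool 2 for 69 cytosolic and 62 mitochondrial members, and cNK pool 3 for another 17 cytosolic members. In contrast to the order of the population means, cNK pool 1 was below ILC1 pool 2 for 88 of 90 cytosolic and 74 of 77 mitochondrial members. Within ILC1, the highest pool exceeded the lowest by more than the population means differed for 87 of 90 and 72 of 77 members. The median member varied 2.04-fold among ILC1 pools and 1.88-fold among cNK pools in the cytosolic set, and 1.68-fold and 1.72-fold in the mitochondrial set.

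Without ILC1 pool 1 the median log2 fold change was -0.34 for the cytosolic and -0.09 for the mitochondrial members. Without cNK pool 2 it was -0.40 and -0.09. Without both of these pools it was -0.19 and 0.08, with 82 of 90 cytosolic but 23 of 77 mitochondrial members below 0 and no member of either set at an unadjusted p under 0.05. These 2 pools are the lowest ILC1 pool and the highest cNK pool of the members themselves, so medians nearer to or above 0 follow from that choice. Without the opposite pair, ILC1 pool 2 and cNK pool 1, the medians were -1.12 and -0.63, with 90 of 90 and 74 of 77 members below 0 and 84 and 29 at an unadjusted p under 0.05, all lower in ILC1. The size of the lean thus depended on which pools were compared. The mitochondrial median was above 0 only in the fit without ILC1 pool 1 and cNK pool 2, chosen as the extremes. With any 1 library left out, it stayed below 0, from -0.52 to -0.09. Without ILC1 pool 2, the medians were -0.88 and -0.43 with 53 cytosolic and 4 mitochondrial members at an unadjusted p under 0.05, all lower in ILC1, and without cNK pool 1 they were -0.86 and -0.52 with 69 and 20. In none of these fits did edgeR call a member after adjustment. Scaled by plain library totals, which moved the median of all genes by 0.22, the medians were -0.33 and -0.02, and 86 cytosolic and 45 mitochondrial members were below 0.

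**Figure D3:**
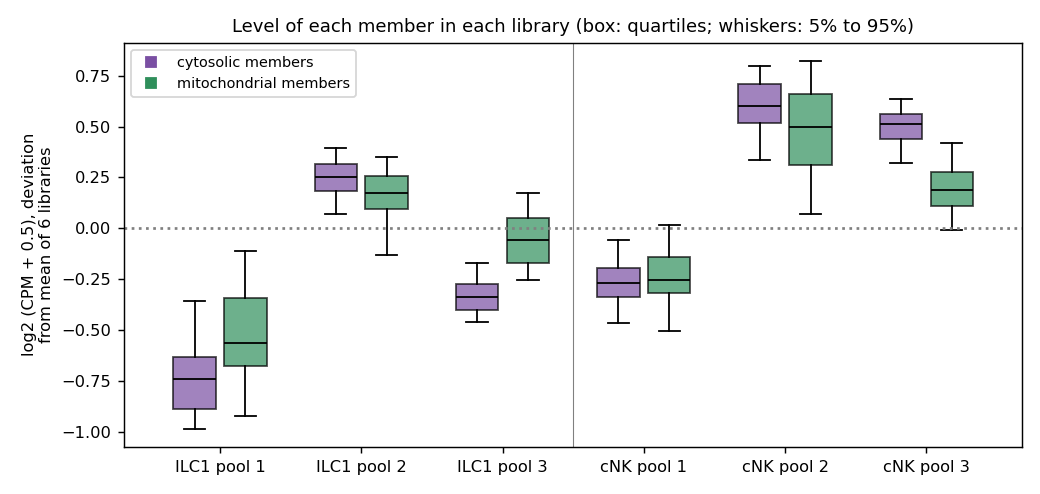
Level of every tested member in each library, as the log2 of CPM plus 0.5 less the gene's mean over the 6 libraries (box, quartiles; line, median; whiskers, 5% to 95% of members). Both sets are lowest in ILC1 pool 1 and highest in cNK pool 2, and ILC1 pool 2 lies above cNK pool 1.

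Levels are given below as CPM, the read count per library size scaled by TMM, edgeR's correction for library composition. They are compared between genes only per kilobase of transcript. The 3 proteins of the stalk of the large subunit, which recruits elongation factors, are Rplp0 and the acidic proteins Rplp1 and Rplp2. Rplp0 (ENSMUSG00000067274, GRCm38 chr5:115559467-115563727) stood at 562, 879 and 630 CPM in ILC1 pools and at 725, 1040 and 1015 CPM in cNK pools, a log2 fold change of -0.42 ± 0.251 (SE; edgeR adjusted p = 0.435). ILC1 pool 2 was above cNK pool 1, so the groups overlapped. Rplp1 and Rplp2 had log2 fold changes of -0.74 ± 0.352 and -0.57 ± 0.388 (edgeR adjusted p = 0.335 and 0.496).

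Rps6 (ENSMUSG00000028495, chr4:86854660-86857412), the small subunit protein that S6 kinase phosphorylates, stood at 374, 604 and 432 CPM in ILC1 pools, against 451, 687 and 679 CPM in cNK pools. Its log2 fold change was -0.37 ± 0.265 (SE; edgeR adjusted p = 0.518), and the groups overlapped. Rpsa, a small subunit protein also known as the laminin receptor, had 405, 713 and 451 CPM in ILC1 and 517, 741 and 774 CPM in cNK, and its log2 fold change was -0.37 ± 0.283 (adjusted p = 0.537 by edgeR). Its groups overlapped in the same way.

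Per kilobase of transcript, the most abundant cytosolic members were Rpl13 and Rps27, at 1349 and 1225 CPM per kilobase over the 6 libraries. The mean of Rpl13 was 907 ± 328 CPM in ILC1 and 1197 ± 325 CPM in cNK (SD, n = 3 each), and that of Rps27 was 350 ± 163 CPM in ILC1 and 495 ± 158 CPM in cNK. Both overlapped between the populations. The median tested cytosolic member stood at 255 CPM per kilobase and the median mitochondrial member at 25.6 CPM per kilobase.

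At the low end, 3 of the 77 core cytosolic proteins had means under 5 CPM per kilobase, while all others were at or above 22.6 CPM per kilobase. These were Rps10, Rpl24 and Rpl13a, whose proteins are ordinary constituents of every cytosolic ribosome. Rps10 (ENSMUSG00000052146, chr17:27630418-27636669) had 0.803, 0.751 and 0.468 CPM in ILC1 pools and 0.609, 0.590 and 0.737 CPM in cNK pools. Only 102 counts were assigned to Rps10 over all 6 libraries, against 3674 counts to 3 pseudogene symbols of Rps10. In GENCODE M21 the exons of all 3 genes overlap another gene annotated on the same strand, which holds for 27 of the 77 core members. The overlapping genes are RPS10-NUDT3 for Rps10, Gm28037 for Rpl24, and Gm45713, Mir5121 and Snord33 for Rpl13a. For many of the other core members they have symbols of small nucleolar RNAs (Snora or Snord), so these overlaps are not all alike. How reads that match several genes were counted is not given in the sources used here, so the levels of these 3 genes are uncertain, and the part of the overlap in them was not tested.

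Reads on processed copies concern more members. The 219 pseudogene symbols of ribosomal proteins in the table took 0.100, 0.160 and 0.113% of counts in ILC1 pools and 0.124, 0.171 and 0.177% in cNK pools, with overlap between the groups. The copy with most reads was Rps6-ps4, with 30002 counts over the 6 libraries. Reads on pseudogene symbols came to 41.5% of the reads of their parent for Rps6, 54.4% for Rpl15 and 256% for Rpl23a. When these reads were added to their parents, the median log2 fold change was -0.58 for the cytosolic and -0.27 for the mitochondrial members and edgeR called 0 in both sets. The value of Rps10, which was 0.06 ± 0.423 (SE) as counted, became -0.64.

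The largest shift of a tested cytosolic member was that of Rps4l, annotated as a processed copy of the small subunit gene Rps4x. Rps4l (ENSMUSG00000063171, chr6:148354656-148355598) stood at 12.2, 17.9 and 23.1 CPM in ILC1 pools, against 26.5, 40.0 and 35.2 CPM in cNK pools. Its log2 fold change was -0.93 ± 0.287 (SE), with an edgeR adjusted p of 0.135 and a DESeq2 adjusted p of 0.0411. All ILC1 pools were below all cNK pools. Only Rps4l and Rps3a3 (-0.77 ± 0.283), a copy of Rps3a1, had no overlap in this direction among the cytosolic members, 2 of 90, against 9.06% of all genes tested. No cytosolic member had all ILC1 pools above all cNK pools, as 15% of genes did. Rps4l and Rps3a3 are both annotated as pseudogenes, and reads of an abundant parent cannot be told apart from theirs where the sequences match.

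Among core proteins of the cytosolic ribosome, the lowest log2 fold changes were those of Rps12 (-0.88 ± 0.401) and Rpl36 (-0.86 ± 0.389; SE), named here after their values were seen. Rps12 had 39.5, 104 and 66.9 CPM in ILC1 pools and 82.8, 151 and 154 CPM in cNK pools. Rpl36 had 106, 243 and 156 CPM in ILC1 and 185, 386 and 347 CPM in cNK. Both overlapped, with ILC1 pool 2 above cNK pool 1, and edgeR gave adjusted p = 0.315 and 0.312.

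Paralogs can replace a core protein in some tissues or take roles outside the ribosome, and 7 paralog pairs were set side by side as reads of the paralog per 100 reads of the main gene. Rpl7l1, a factor of early large subunit assembly related to Rpl7, had 31.1, 17.8 and 20.9 in ILC1 pools and 23.9, 12.9 and 11.2 in cNK pools. Its own level was 89.1, 96.8 and 73.0 CPM in ILC1 and 94.4, 86.7 and 77.6 CPM in cNK, the flattest of the named paralogs, with a log2 fold change of 0.00 ± 0.182 (SE; edgeR adjusted p = 0.998). Rpl22l1, the paralog of Rpl22, had 18.5 ± 1.74 reads per 100 of Rpl22 in ILC1 and 18.1 ± 0.770 in cNK (SD, n = 3 each). Here paralog and main gene kept nearly the same proportion in all libraries, between 17.3 and 20.6.

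Rpl36al had 2.98, 1.68 and 2.64 reads per 100 of Rpl36a in ILC1 pools and 1.50, 1.06 and 1.16 in cNK pools. This was the 1 pair of the 7 without overlap between the populations, but it rests on 23 to 40 counts of Rpl36al per library. The log2 fold change of Rpl36al itself was 0.20 ± 0.379 (SE; edgeR adjusted p = 0.799). Rps27l, a p53-responsive paralog of Rps27, had 14.3 ± 3.83 reads per 100 of Rps27 in ILC1 and 16.4 ± 4.48 in cNK, and Rps4l had 7.55 ± 2.76 per 100 of Rps4x in ILC1 and 9.80 ± 1.53 in cNK (SD, n = 3 each). Rpl3l, which replaces Rpl3 in striated muscle, and Rpl39l, a testis paralog of Rpl39, were near the limit of detection, with 1 to 25 and 3 to 14 counts per library. Rps19bp1, a regulator of SIRT1 and not a ribosomal protein, had a log2 fold change of -0.18 ± 0.278 (SE; edgeR adjusted p = 0.751).

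Of the mitochondrial ribosome, 4 proteins had no overlap between the populations. Mrpl33, a small protein of the large subunit (ENSMUSG00000106918, chr5:31596935-31664384), stood at 9.31, 12.8 and 11.5 CPM in ILC1 pools, against 16.9, 24.6 and 17.9 CPM in cNK pools. Its log2 fold change of -0.82 ± 0.235 (SE) had an adjusted p of 0.110 by edgeR and 0.0199 by DESeq2, and every ILC1 pool was below every cNK pool. Exons of Mrpl33 overlap another annotated gene on the same strand.

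Mrpl50, another protein of the large subunit (ENSMUSG00000044018, chr4:49512596-49521093), had 12.7, 17.0 and 19.0 CPM in ILC1 pools and 21.2, 28.7 and 26.8 CPM in cNK pools. The log2 fold change was -0.65 ± 0.227 (SE; edgeR adjusted p = 0.183), again with every ILC1 pool below every cNK pool. Mrpl58, the peptidyl-tRNA hydrolase of the large subunit that rescues stalled mitochondrial ribosomes, had the same size of difference with overlap (-0.65 ± 0.266, adjusted p = 0.263 by edgeR).

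In the other direction, Mrps5 and Mrps2, both of the small subunit, had every ILC1 pool above every cNK pool. Mrps5 (ENSMUSG00000027374, chr2:127587222-127606829) had 33.2, 36.5 and 33.1 CPM in ILC1 and 26.2, 32.6 and 29.3 CPM in cNK, and its log2 fold change was 0.22 ± 0.170 (SE; edgeR adjusted p = 0.539), or -0.00072 with the length trend described below removed. Mrps2 (ENSMUSG00000035772, chr2:28468066-28471178) had 21.7, 22.3 and 21.3 CPM in ILC1 and 19.4, 20.7 and 20.9 CPM in cNK, and its log2 fold change was 0.10 ± 0.161 (adjusted p = 0.764 by edgeR). Both differences were small and neither passed the test. With 2 of 77 members in each direction, the mitochondrial set had fewer separated genes than the 15% (ILC1 above) and 9.06% (cNK above) of all genes tested.

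**Figure D4:**
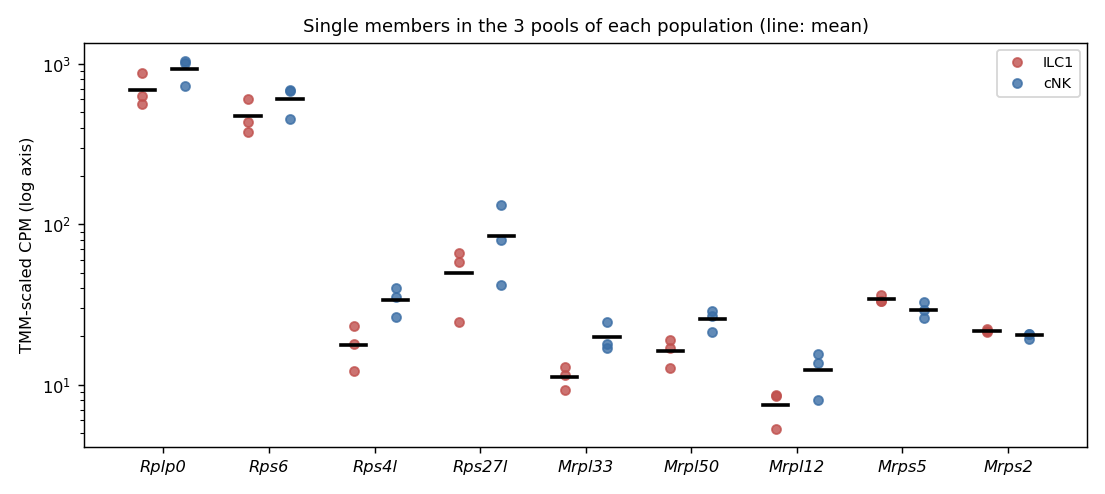
Level of 9 members in the 3 ILC1 pools and the 3 cNK pools, as TMM-scaled CPM on a log axis (points; line, mean). Rps4l, Mrpl33 and Mrpl50 are lower in every ILC1 pool and Mrps5 and Mrps2 higher in every ILC1 pool, while Rplp0, Rps6, Rps27l and Mrpl12 overlap.

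Mrpl12, a large subunit protein that also binds the mitochondrial RNA polymerase, had 5.34, 8.54 and 8.60 CPM in ILC1 pools and 8.10, 15.7 and 13.6 CPM in cNK pools (log2 fold change -0.73 ± 0.328, edgeR adjusted p = 0.307). Mrps12, the small subunit protein related to the bacterial protein of the decoding site, had a log2 fold change of -0.41 ± 0.371 and Mrps15 one of -0.23 ± 0.292 (SE). The 3 paralogs Mrps18a, Mrps18b and Mrps18c, which sit at different places of the mitochondrial ribosome, had -0.18 ± 0.271, -0.05 ± 0.359 and -0.53 ± 0.352. All of these overlapped between the populations, and edgeR called none.

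Per kilobase, Mrpl42, Mrps21 and Mrpl52 were the most abundant mitochondrial members, at 157, 136 and 118 CPM per kilobase. Mrpl47, Mrps34 and Mrps25 were the least abundant, at 2.93, 4.30 and 4.55 CPM per kilobase. The low rank of Mrps25 rests on its assigned transcript length of 6073 bases, as it averaged 27.6 CPM before division by length. Exons of Mrpl47, Mrps34 and Mrps25 overlap those of genes on the opposite strand in GENCODE M21, which holds for 27 of the 77 mitochondrial members. Those of Mrps34 also overlap Nme3 on its own strand. Whether the counting used strand is not given in the sources used here. The log2 fold changes of these 6 genes ran from -0.61 (Mrpl42) to -0.17 (Mrpl47), and edgeR called none.

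Fold changes followed transcript length, inside the set and outside it. Among 12902 protein-coding genes that are no members, the median log2 fold change was -0.61 for transcripts up to 600 bases, -0.38 up to 1000, -0.20 up to 1500, -0.09 up to 2000, 0.04 up to 3000, 0.16 up to 5000 and 0.22 above. The median transcript of these genes was 2862 bases long, against 803.5 bases for cytosolic and 1280 bases for mitochondrial members. Across genes, Spearman's rho between length and log2 fold change was 0.266 for the non-members, 0.436 for 84 protein-coding cytosolic members and 0.398 for 77 mitochondrial members, as a description, since genes of a library share its depth and quality.

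In matching length classes, cytosolic members had medians of -0.63 (23 genes up to 600 bases), -0.56 (36 genes up to 1000), -0.54 (15 genes up to 1500), -0.40 (6 genes up to 2000) and -0.38 (2 genes up to 3000). The 1 cytosolic gene in each of the longest classes had -0.45. The cytosolic median was thus close to that of other genes in the shortest class and below it in every longer class. Mitochondrial members had medians of -0.60 (3 genes), -0.35 (22 genes), -0.25 (22 genes) and -0.08 (6 genes) in the classes up to 600, 1000, 1500 and 2000 bases, close to those of other genes of their length. Longer mitochondrial members did not follow the other genes, with medians of -0.40 (8 genes up to 3000 bases, against 0.04 in other genes), -0.13 (14 genes up to 5000, against 0.16) and -0.43 (2 genes above 5000, against 0.22). No test of these differences was made, as the members of a set rise and drop together from library to library.

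The libraries at the ends of the ribosomal protein order were also at the ends for short genes that are no members. The median non-member up to 600 bases stood at -0.69, 0.00 and -0.04 in ILC1 pools 1 to 3 and at -0.23, 0.65 and 0.32 in cNK pools 1 to 3 (log2 deviation from the mean of the 6 libraries). When a smooth trend on transcript length was removed from each library, the median log2 fold change was -0.32 for the cytosolic members and -0.18 for the mitochondrial members, beside -0.04 for all genes. Of the members, 87 of 90 and 62 of 77 were below 0, and edgeR called 0 in either set, against 4.78% of all genes higher in ILC1 and 2.57% higher in cNK in that fit. What sets the dependence on length was not tested.

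**Figure D5:**
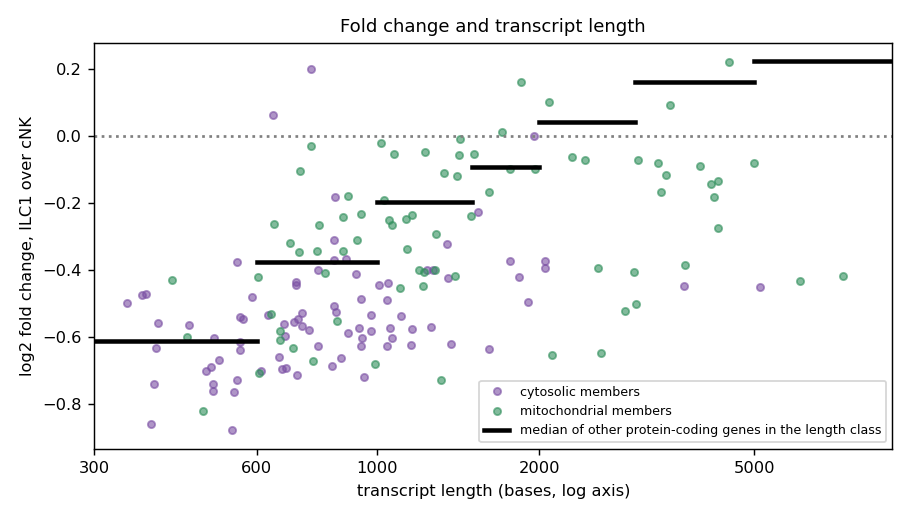
Log2 fold change of ILC1 over cNK against transcript length in bases (log axis) for protein-coding cytosolic and mitochondrial members (points). Black lines give the median of other protein-coding genes in each length class, from -0.61 up to 600 bases to 0.22 above 5000 bases.

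Members with and without the pyrimidine tract shown above had similar medians, where the tract includes runs that lie before the annotated start. The median log2 fold change was -0.56 for 30 tested cytosolic members with a tract and -0.52 for 36 without one, and -0.24 for 7 mitochondrial members with a tract and -0.27 for 61 without one. The TOP mRNAs outside the set, which encode translation factors and a few other proteins, had 16 of 18 log2 fold changes below 0 with a median of -0.33. None was called by edgeR, and 0 of the 18 had an unadjusted p under 0.05 in either direction (DESeq2 and limma-voom 0 and 0).

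Proteins of the mitochondrial ribosome with symbols outside the rule were examined beside the set. Of 5 such genes (Dap3, Ptcd3, Aurkaip1, Chchd1 and Gadd45gip1), 4 had a log2 fold change below 0, with a median of -0.20, and 0 had an unadjusted p under 0.05 by edgeR (DESeq2 and limma-voom 0 and 0). All of these overlapped between the populations.

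Reads of the RNA components of the mitochondrial ribosome varied far more than reads of its protein genes. The 12S RNA mt-Rnr1 stood at 77.8, 181 and 365 CPM in ILC1 pools and at 177, 1127 and 948 CPM in cNK pools (log2 fold change -1.85 ± 0.778, edgeR adjusted p = 0.276). The 16S RNA mt-Rnr2 stood at 1290, 2842 and 5514 CPM in ILC1 and at 2867, 15825 and 11145 CPM in cNK (-1.63 ± 0.722, adjusted p = 0.302 by edgeR). The 13 mitochondrial mRNAs that this ribosome translates had log2 fold changes from -2.21 to -1.18, with 0 called by edgeR, DESeq2 and limma-voom, and 0 above and 2 below cNK at an unadjusted edgeR p under 0.05. ILC1 pool 3 was the highest ILC1 pool for both ribosomal RNAs, whereas the median mitochondrial ribosomal protein was highest in ILC1 pool 2 among the ILC1 pools. Mitochondrially encoded genes took 1.38, 2.25 and 6.53% of counts in ILC1 pools and 3.15, 12.7 and 10.3% in cNK pools. Kidney epithelial markers took 0.142, 0.0918 and 0.431% in ILC1 pools and 0.172, 0.681 and 0.551% in cNK pools. Both shares were highest in cNK pool 2, then cNK pool 3, then ILC1 pool 3. The part of kidney epithelial cells in the mitochondrial RNA levels was not tested.

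The lists of genes that build or drive ribosomes had medians near or above 0. The median log2 fold change was 0.23 over 22 mitochondrial ribosome assembly factors, 0.03 over 14 mitochondrial translation factors, -0.03 over 44 cytosolic ribosome biogenesis factors, 0.20 over 14 subunits and factors of RNA polymerase I, which transcribes ribosomal RNA, and 0.11 over 20 genes of mTORC1, S6 kinase and Myc control. In the same order, the median transcripts of these lists were 2138, 2560.5, 2857.5, 3048.5 and 3737.5 bases long, longer than those of the members. Other protein-coding genes of more than 2000 and up to 3000 bases had a median of 0.04. Those of more than 3000 and up to 5000 bases had 0.16. The part of length in the medians of these lists was not tested. EdgeR called 0 genes of these lists in either direction, and limma-voom 0. At an unadjusted p under 0.05, edgeR had the assembly factors Nsun4 (log2 fold change 0.47) and Rbfa (0.43), the RNA polymerase I genes Polr1a (0.79) and Taf1a (0.56), and Myc higher in ILC1. By the same measure the assembly factor Ddx28 (-0.49), the biogenesis factor Eif6 (-0.49), which keeps the subunits apart, and the Myc antagonist Mxi1 (-0.43) were lower in ILC1. Over all genes tested, 11.4% were higher and 6.63% lower in ILC1 by this measure, so these lists together held no excess of such genes. DESeq2 called 3 of these 8 genes, Ddx28 and Eif6 lower and Myc higher in ILC1, where it called 4.29% of all genes lower and 7.14% higher. Myc, the transcription factor that drives ribosome production, had 127, 144 and 129 CPM in ILC1 pools and 83.8, 77.4 and 94.1 CPM in cNK pools (log2 fold change 0.65 ± 0.166, edgeR adjusted p = 0.0782). Its pools did not overlap, with ILC1 above cNK, as for 15% of all genes tested.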

How the data were processed

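The values used are raw read counts per gene in 6 libraries, as deposited by the authors. The authors also deposited a mean signal of the 3 count columns of each population, and ranked gene lists, neither of them used here. GRCm38, STAR 2.6.1, Trimmomatic 0.38, DESeq, DESeq2 1.30.0 and R 4.03 are listed per the submitters' processing notes, without their roles. How reads were counted, with or without strand, and how reads matching several genes were treated is not given in the sources used here. All 169 members and 23836 of 23841 identifiers matched GENCODE M21. A row with no gene identifier was left out. Transcript length is the median over a gene's principal transcripts.

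The deposited counts went unchanged into edgeR 4.0.16 (R 4.3.3; TMM scaling, filterByExpr by group, robust quasi-likelihood fit on population alone, Benjamini-Hochberg over all genes, threshold 0.05). The standard error comes from the F statistic. Library deviations use log2 of CPM plus 0.5, and shares use all counts. The alternatives were DESeq2 1.42.0, limma-voom (limma 3.58.1), other scalings and filters, a block for pool number and leaving out each library. Those chosen after seeing the data were a length trend (lowess span 0.3), leaving out ILC1 pool 1 with cNK pool 2 or ILC1 pool 2 with cNK pool 1, and adding pseudogene reads to parents. The edgeR step was tested on simulated data.

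Members and gene lists were chosen with earlier results of these data known, so no p-value is given for a list. Named members were those without overlap between populations at 10 CPM or more, the 3 highest and 3 lowest per length in each set, paralog pairs and a fixed list of stalk, S6, Mrps18 and similar genes. Others are named where they make up a count of few genes. Results of a few genes are not reported here.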

Additional observations from a re-analysis of the deposited data

How the results depend on the processing

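In none of the 19 alternatives did edgeR call a member of either set, except with pool number as a replicate block. That fit called 17 of 90 cytosolic and 10 of 77 mitochondrial members lower in ILC1. Of the 16144 genes tested, it called 1107 higher in ILC1 and 675 higher in cNK. At an unadjusted edgeR p under 0.05, the block fit had 72 cytosolic and 32 mitochondrial members, all lower in ILC1. The share of all genes by this measure in that fit is not given here. Deviations of same-numbered pools correlated at 0.525, -0.127 and 0.0588 across genes, low or negative in 2 of the 3 pairs. ILC1 pool 3 correlated most with cNK pool 2 (0.591). For the members, the median level of each set rose from pool 1 to pool 3 to pool 2 in both populations. The labels do not say whether same-numbered pools share mice, so the pairing is not known. The DESeq2 Wald test called 1 cytosolic and 1 mitochondrial member higher in cNK (1153 and 693 genes overall). Over all genes, the counts higher in ILC1 and in cNK were 258 and 136 when ILC1 pool 1 and cNK pool 2 were both left out, 174 and 123 when ILC1 pool 2 and cNK pool 1 were (median of cytosolic members -1.12), and 771 and 415 with the length trend removed. Leaving out 1 library gave 214 to 695 higher in ILC1 and 93 to 672 higher in cNK, and medians of -0.88 to -0.34 for cytosolic and -0.52 to -0.09 for mitochondrial members. Counts divided by transcript length put the cytosolic share at 3.96% in ILC1 and 4.13% in cNK, the mitochondrial share at 0.417% and 0.382%, and their ratio at 9.42 and 10.8, so the order of the mitochondrial share turned.

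Among the named genes, log2 fold changes changed sign as follows, none of them called. With ILC1 pool 1 and cNK pool 2 left out they were 0.019 for Mrpl42, 0.37 for Mrpl47, 0.034 for Mrpl52, 0.13 for Mrps12, 0.18 for Mrps15, 0.22 for Mrps18a, 0.26 for Mrps18b, 0.20 for Mrps25, 0.015 for Rpl22, 0.62 for Rpl3l, -0.022 for Rpl7l1, -0.14 for Rps10, 0.078 for Rps19bp1 and 0.029 for Rps27l. With ILC1 pool 2 and cNK pool 1 left out they were -0.071 for Rpl36al, -0.041 for Rpl7l1 and -0.087 for Rps10. With plain library totals they were 0.075 for Mrpl47, 0.0050 for Mrps15, 0.062 for Mrps18a, 0.20 for Mrps18b and 0.045 for Rps19bp1. With the length trend removed they were 0.060 for Mrps18a, 0.16 for Mrps18b, -0.00072 for Mrps5, -0.0028 for Rpl7l1 and 0.061 for Rps19bp1. Mrps18b was 0.016 with the replicate block and 0.054 with limma-voom. Rpl7l1 was -0.027 with DESeq2 size factors and the DESeq2 Wald test, -0.087 with upper-quartile factors, -0.076 with the stricter filter, -0.0044 with the replicate block and with limma-voom, and -0.0061 with pseudogene reads added. Rps10 was -0.037 with upper-quartile factors and -0.64 with pseudogene reads added. Leaving out 1 library at a time gave -0.46 to 0.11 for Mrpl47, -0.41 to 0.036 for Mrps18a, -0.39 to 0.16 for Mrps18b, -0.0049 to 0.34 for Rpl36al, -2.04 to 0.14 for Rpl3l, -0.089 to 0.11 for Rpl7l1 and -0.076 to 0.27 for Rps10. The cause was not tested. With 3 pools a population, members under 1 CPM such as Rps10 and Rpl3l rest on few counts, and intervals of their fold changes are wide.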
